A study of Mus musculus with 10 samples.

Results

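Radial glial progenitor genes were examined in cortical cells that had lost Cdkn1c, which encodes an inhibitor of cyclin-dependent kinases. The list held 33 mouse genes known to mark ventricular or outer radial glia, without cell cycle and Notch genes, and its genes were taken by symbol, although the list was drawn up with earlier results of these data known. All 33 were found among the 53379 genes of the count tables. Of these, 31 passed the filter of a mean of 10 reads per library, while Hopx and Zfp36l2 did not.

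Each library was made by Smart-Seq2 from 400 cells sorted from the neocortex of 1 embryo at E16, with 3 cKO and 7 control embryos. Both genotypes carried the MADM-7 cassettes on chromosome 7 and the Emx1-Cre driver, in a mixed C57BL/6J and CD1 background (strain background CD1 in the labels). The cKO embryos (cKO-Cdkn1c-MADM-7) were additionally homozygous for the Cdkn1c-flox allele. Emx1-Cre recombines in dorsal telencephalic progenitors, so the sort took labelled progenitors and their neuronal progeny together, and the GFP+, tdT+ and GFP+/tdT+ cells were pooled. In such bulk samples, fewer cells of a type and less RNA per cell cannot be told apart.

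Radial glia line the ventricle of the developing cortex, reach the pial surface with a long fibre, and divide to renew themselves or to give rise to intermediate progenitors and neurons. Transcription factors of the SOX, PAX and NFI families set their identity and the timing of neurogenesis and gliogenesis, while intermediate filaments, lipid-binding proteins and adhesion and matrix molecules build their scaffold and niche. Late in neurogenesis many of the same genes are carried over into astrocytes.

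The libraries held 1738220 to 3362487 reads on genes, with 2417184 to 2998916 in cKO. Cdkn1c itself was at 3.94, 7.64 and 10.8 CPM (read counts scaled by library size and TMM factors) in the 3 cKO libraries and at 67.5 to 131 in the controls, a log2 fold change of -3.66 (SE 0.31, adjusted p = 3.68e-06). Reads outside genes made up 5.47% to 16.7% of the uniquely aligned reads and placed cKO 1, cKO 2 and controls 3, 4 and 5 (12.8% or more) apart from cKO 3 and controls 1, 2, 6 and 7 (8.64% or less). Red blood cell genes, mainly globins, summed to 2301 CPM in cKO 1, 1499 in control 2 and 1817 in control 5, and to at most 65.5 in the other libraries, and edgeR called 0 of the 5 tested (1 at an unadjusted p under 0.05). Their part in the results below was not tested. The labelled cortical cells carried their defining genes, with projection neuron markers at 8424 to 14619 CPM in sum.

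None of the 31 tested radial glial genes was called higher in cKO and 1, Cdh2, was called lower, by edgeR's quasi-likelihood test at an adjusted p under 0.05 over all 11551 genes tested. In the same fit 364 genes (3.15%) were called in either direction, 262 (2.27%) higher and 102 (0.883%) lower in cKO. At an unadjusted p under 0.05, there were 9 radial glial genes, 4 with positive and 5 with negative values, which is 29.0% of those tested beside 16.4% of all genes. DESeq2 called Cdh2 and no other member, where it called 4.42% of all genes. The fitted log2 fold changes ran from -0.99 to 1.35 with a median of 0.18, beside 0.01 for all genes. Of the 31 values, 19 were positive and 12 negative, and 51.3% of all genes had a positive value. For 19 genes the 95% confidence interval lay within a 2-fold change in both directions, while it reached above a 2-fold increase for 10 and below a 2-fold decrease for 2. In these genes, apart from Cdh2, a change of that size was not called and lay inside the interval.

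**Figure D1:**
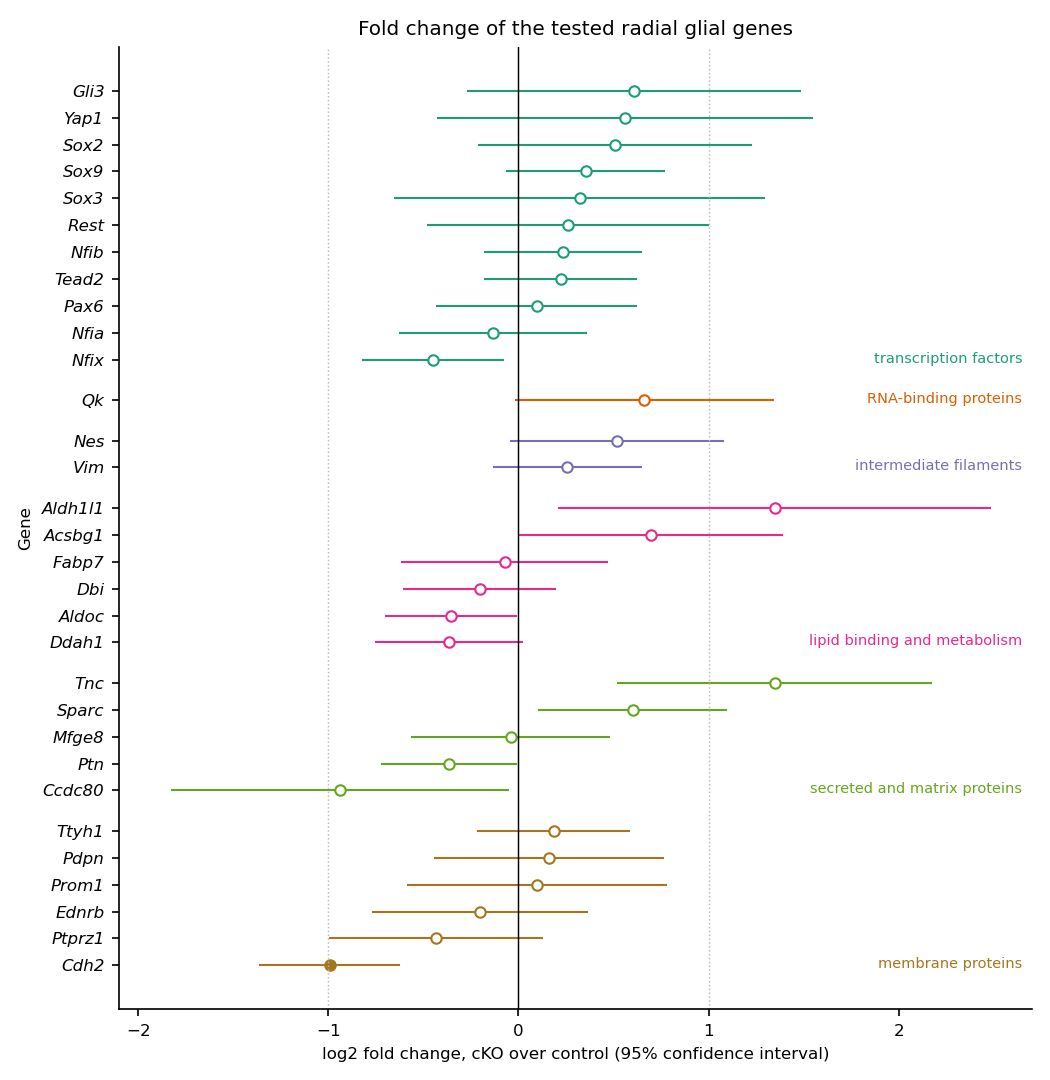
Fitted log2 fold change (cKO over control) of the 31 tested radial glial genes with the 95% confidence interval, grouped and coloured by role, with dotted lines at a 2-fold change in each direction. The filled point is Cdh2 at -0.99, the gene past the threshold, and the open points are genes that did not pass it.

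Cdh2 encodes N-cadherin, the calcium-dependent adhesion molecule of the apical junctions that hold radial glia together at the ventricle, and it is also present in neurons. It was at 78.9, 108 and 108 CPM in cKO, with a lowest, median and highest control of 153, 202 and 239.8. Every cKO library was below every control, a separation seen in 2.68% of all genes in this direction. Its mean was 98.5 ± 16.9 CPM in cKO (SD, n = 3) and 195 ± 29.4 in controls (n = 7), and the log2 fold change was -0.99 (SE 0.17, adjusted p = 0.00297). Among the libraries with the low share of reads outside genes, where cKO 3 is the single cKO library, the value was -0.88, and among those with the high share it was -1.01.

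**Figure D2:**
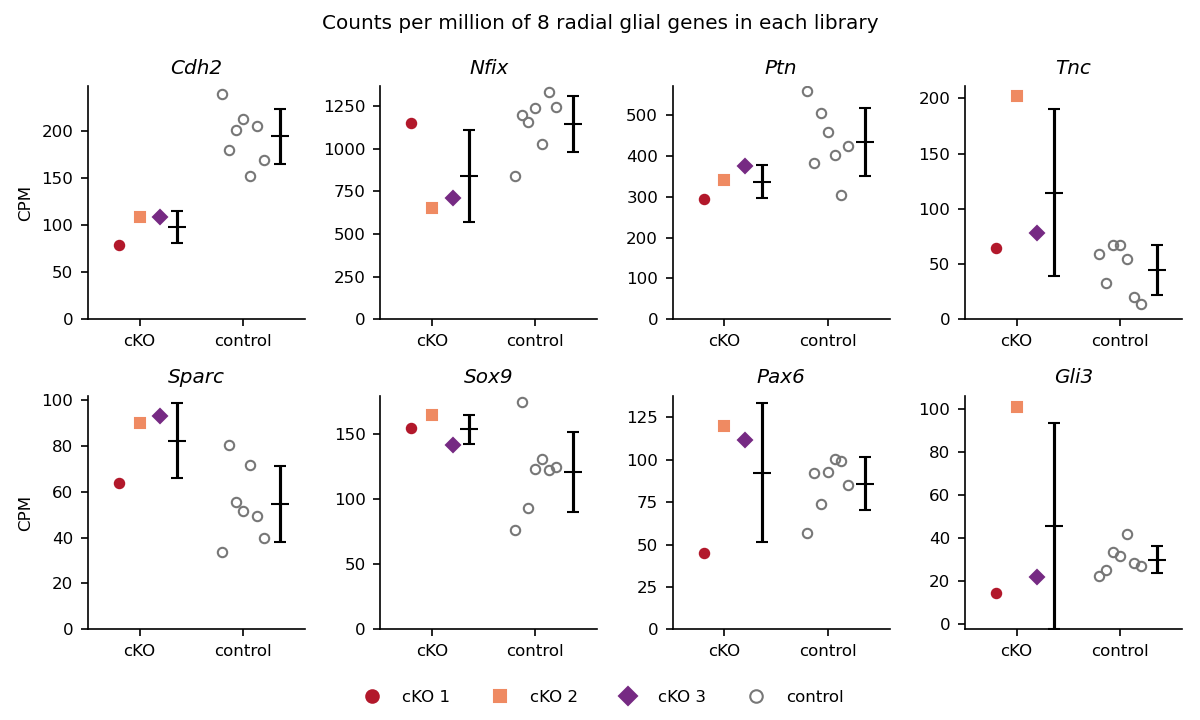
CPM of 8 radial glial genes in the 3 cKO libraries (filled symbols, 1 per embryo) and the 7 controls (open circles), with the mean and SD of each group as bars to the right of its points (the SD bar of Gli3 in cKO reaches below 0). Of these genes only Cdh2 is separated between the groups. A single cKO library stands apart from the others for Tnc and Gli3 (cKO 2) and for Nfix and Pax6 (cKO 1).

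Among the 12 transcription factors, 11 were tested and none passed the threshold, with 9 positive and 2 negative values and a median log2 fold change of 0.26. Nfix had the smallest p of the group. This nuclear factor I protein promotes the step from self-renewal to differentiation and to glia, and lies at chr8:84699876-84800344 (GRCm38, minus strand). Nfix was at 1150.2, 655 and 713 CPM in cKO, and its lowest, median and highest control were 839.6, 1196 and 1330.0. The libraries cKO 2 and cKO 3 were below every control, while cKO 1 lay inside the control range. The log2 fold change was -0.45 (SE 0.17, adjusted p = 0.192), and without cKO 1 it was -0.75 with an adjusted p of 0.0166, whereas without cKO 2 it was -0.31 with an adjusted p of 0.409. An antisense transcript, G430095P16Rik, shares 137 exon bases with Nfix, and the libraries do not mark strand. Nfix had 29132 reads in the unstranded counts and 34666 with the counts of both strands summed.

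The other NFI members had values nearer to 0 in the fit of all libraries, and the difference from Nfix was not tested. Nfia was at 393, 849 and 579.6 CPM in cKO, with a lowest, median and highest control of 352, 687 and 823, and Nfib was at 1035, 1509.6 and 822 in cKO, with 642, 957 and 1203 in controls. Their log2 fold changes were -0.14 (SE 0.23) and 0.23 (SE 0.20). Without cKO 2 they were -0.47 and -0.05, and Nfia was then further from 0 than Nfix, at -0.31. For both genes cKO 2 was the highest of the 10 libraries, which is the library in which Nfix was lowest.

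Sox2, which maintains the progenitor state, was at 15.2, 59.1 and 33.5 CPM in cKO, with a lowest, median and highest control of 15.5, 24.5 and 35.5. Both ends of the 10 libraries were cKO embryos, with cKO 1 lowest and cKO 2 highest, and the log2 fold change of 0.51 (SE 0.34, adjusted p = 0.501) became -0.08 without cKO 2. Its relative Sox3, also a neural progenitor factor, was low, at 1.69, 6.70 and 8.91 CPM in cKO and 2.94, 4.28 and 5.75 as lowest, median and highest control. Sox9, which sets the potency of neural stem cells and later of astrocytes, was at 154, 164 and 142 CPM in cKO and at 76.2, 123 and 174 in controls. All 3 cKO libraries were above the control median for Sox9 and below the highest control, and the log2 fold change was 0.35 (SE 0.20, adjusted p = 0.396).

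Pax6, which sets dorsal identity and drives neurogenesis, was at 45.2, 120.2 and 112 CPM in cKO, with a lowest, median and highest control of 56.6, 92.0 and 101. The library cKO 1 was below and the other cKO libraries were above all 7 controls, so the group means, 92.3 ± 41.0 CPM in cKO (SD, n = 3) and 85.9 ± 15.7 in controls (n = 7), nearly coincided and the interval of the fold change was 0.744 to 1.54. Gli3, the main repressor arm of Hedgehog signalling in the dorsal cortex, was at 14.5, 101 and 22.1 CPM in cKO, with 22.5, 28.4 and 41.9 as lowest, median and highest control. Its log2 fold change of 0.61 (SE 0.41, adjusted p = 0.513) rested on cKO 2, and without that library it was -0.74.

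Factors of the Hippo pathway and the repressor Rest completed the group. Yap1, the coactivator that Hippo signalling holds in check, was at 3.37, 19.3 and 14.0 CPM in cKO and at 3.91, 7.95 and 12.2 as lowest, median and highest control, and Tead2, its DNA-binding partner, was at 65.4, 60.7 and 48.4 and 37.8, 53.0 and 58.7. Their log2 fold changes were 0.56 (SE 0.47) and 0.22 (SE 0.19), and that of Yap1 was 0.02 without cKO 2. Rest, which silences neuronal genes in progenitors, was at 39.8, 14.6 and 17.8 CPM in cKO and at 12.8, 17.8 and 35.0 in controls, and was highest in cKO 1. The homeodomain-only protein Hopx, a marker of outer radial glia, was too low to test, with 85 reads in all and 0 to 5.75 CPM in controls, against 3.37, 9.45 and 2.12 in cKO. Hopx shares 412 exon bases with the antisense gene Hopxos. With the counts of both strands summed Hopx had 205 reads and a log2 fold change of 1.09 (SE 0.53, adjusted p = 0.328).

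For the sequence context of these factors, the 250 bases before each annotated start were searched for their usual letters in the RefSeq promoter table (GRCm38.p6), which held 35 windows for 26 of the 33 genes. The letters ACAAAG (SOX), GGAATG (TEAD), TTGGCA (an NFI half-site) and CCACCCA (GLI) were searched on both strands, with 0 matches of different motifs overlapping in the members' windows. The SOX letters were in 14.3% of the members' windows (5 genes: Nfix, Pax6, Pdpn, Sox2 and Tead2) and in 16.5% of all 32851 windows. TEAD letters were in 5.71% (Aldoc and Yap1) beside 12.6%, NFI letters in 5.71% (Aldoc and Tnc) beside 12.3%, and GLI letters in 11.4% (Nfix and Ptn) beside 8.11%, with 3 of these 4 windows belonging to alternative starts of Nfix. A match is a description of the letters and not of binding. The windows of Sox2 (chr3:34649745-34649994, plus strand) and Yap1 (chr9:8004597-8004846, minus strand) are shown because each of these factors has the letters of its own family or partner before its start, in capitals.
Sox2: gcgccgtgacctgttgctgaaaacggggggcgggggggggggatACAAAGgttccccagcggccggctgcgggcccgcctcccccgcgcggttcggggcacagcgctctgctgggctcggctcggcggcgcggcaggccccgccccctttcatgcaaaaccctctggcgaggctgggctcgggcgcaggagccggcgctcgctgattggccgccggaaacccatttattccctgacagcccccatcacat
Yap1: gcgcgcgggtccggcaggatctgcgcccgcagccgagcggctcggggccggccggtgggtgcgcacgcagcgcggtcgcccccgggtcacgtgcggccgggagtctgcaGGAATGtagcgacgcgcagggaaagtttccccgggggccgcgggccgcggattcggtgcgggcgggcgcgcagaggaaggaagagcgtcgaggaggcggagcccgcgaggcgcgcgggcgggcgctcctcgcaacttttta
Median GC content was 57.2% in the members' windows beside 52.4% in all windows, and the observed over expected CpG ratio was 0.462 beside 0.373.

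Of the RNA-binding proteins, Qk, a regulator of splicing and mRNA stability in neural progenitors and glia, was at 58.7, 174 and 73.4 CPM in cKO, with a lowest, median and highest control of 38.5, 52.4 and 98.4. Only cKO 2 was outside the control range, and the log2 fold change of 0.66 (SE 0.32, adjusted p = 0.319) was 0.02 without that library. Zfp36l2, which promotes decay of AU-rich mRNAs, had 37 reads in the 10 libraries and was not tested. The intermediate filament genes Vim and Nes build the cytoskeleton of the radial fibre. Vim was at 419, 525.5 and 448 CPM in cKO and at 264, 406 and 510.0 as lowest, median and highest control, and Nes was at 50.9, 43.3 and 24.2 in cKO and at 21.2, 25.3 and 40.2 in controls. All 3 cKO libraries were above the control median for Vim, and its fold change interval was 0.913 to 1.56. The log2 fold change of Nes was 0.52 (SE 0.26, adjusted p = 0.348).

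In the group of lipid binding and metabolism, 2 of 6 genes had positive and 4 had negative values, and none passed the threshold. Fabp7, the brain lipid-binding protein that is a classical radial glia marker, had the highest level of all members per kb of exon, 788 CPM per kb in controls, followed by Dbi, a carrier of acyl-CoA, at 392. Fabp7 was at 503, 1188 and 1118 CPM in cKO, with a lowest, median and highest control of 634, 935 and 1431, and Dbi was at 315, 568.1 and 566 and 434, 525.9 and 772. In both genes cKO 1 was below every control while the other cKO libraries lay within the control range. Their fold change intervals were 0.654 to 1.38 and 0.660 to 1.14.

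Genes with astrocyte functions in this group had values of both signs. Aldoc, the brain form of aldolase, was at 168, 213 and 170.1 CPM in cKO and at 166, 239 and 274 as lowest, median and highest control, with a log2 fold change of -0.36 (SE 0.16, adjusted p = 0.279). Ddah1, which degrades methylated arginines, was at 125, 204 and 137 CPM in cKO and 163, 215 and 253 in controls. Its log2 fold change was -0.37 (SE 0.18, adjusted p = 0.332), and -0.62 without cKO 2. None of the 3 cKO libraries reached the control median for either gene. In the other direction, Aldh1l1, a folate enzyme used as an astrocyte marker, was at 17.9, 7.88 and 3.82 CPM in cKO and at 1.07, 3.49 and 7.62 in controls. It had 3 to 53 reads per library, was highest in cKO 1, and had a log2 fold change of 1.35 (SE 0.54, adjusted p = 0.21), which was 0.54 without cKO 1 (adjusted p = 0.737). Acsbg1, an acyl-CoA synthetase, was at 18.2, 15.0 and 21.6 CPM in cKO and at 4.32, 10.7 and 17.1 in controls, with a log2 fold change of 0.70 (SE 0.33, adjusted p = 0.298).

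The secreted and matrix proteins spread most widely, from -0.94 to 1.35 on the log2 scale. Tnc encodes tenascin C, a matrix glycoprotein of the progenitor niche that outer radial glia also make, and lies at chr4:63959785-64047015 (GRCm38, minus strand). It was at 64.4, 202 and 78.1 CPM in cKO, with a lowest, median and highest control of 13.5, 54.7 and 67.4. The libraries cKO 2 and cKO 3 were above every control and cKO 1 was within the control range. The log2 fold change was 1.35 (SE 0.39, adjusted p = 0.0727), the lowest adjusted p among the members that were not called. Without cKO 1 it was 1.64 with an adjusted p of 0.0354, and without cKO 2 it was 0.65 with an adjusted p of 0.426.

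Sparc, a collagen-binding matrix protein, was at 63.7, 90.2 and 93.3 CPM in cKO and at 33.7, 51.6 and 80.3 as lowest, median and highest control. Again cKO 2 and cKO 3 were above every control, and the log2 fold change was 0.60 (SE 0.23, adjusted p = 0.196). Ptn, pleiotrophin, the growth factor that binds the receptor phosphatase Ptprz1, was at 293, 342 and 374 CPM in cKO and at 304, 424 and 558 in controls, with a log2 fold change of -0.37 (SE 0.17, adjusted p = 0.279). All 3 cKO libraries were below the control median for Ptn, and cKO 1 was below every control. Ccdc80, a secreted protein of the matrix, was at 17.9, 16.5 and 8.06 CPM in cKO and at 14.0, 27.7 and 54.1 in controls, and its log2 fold change was -0.94 (SE 0.42, adjusted p = 0.267). Mfge8, a secreted protein that bridges dying cells and phagocytes, had group means of 94.5 ± 37.1 CPM in cKO (SD, n = 3) and 97.1 ± 25.1 in controls (n = 7) and a fold change interval of 0.679 to 1.39.

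Besides Cdh2, the membrane proteins held 5 genes that did not pass the threshold. Ptprz1 was at 181, 295 and 122 CPM in cKO and at 142, 300.1 and 351 as lowest, median and highest control. Its log2 fold change was -0.43 (SE 0.26, adjusted p = 0.447), and -0.84 without cKO 2. None of the cKO libraries reached the control median for the ligand Ptn or for the receptor Ptprz1. Pdpn, podoplanin, was at 28.3, 86.7 and 73.0 CPM in cKO and at 41.7, 49.4 and 74.5 in controls, and Prom1, the CD133 protein of apical membranes, was at 12.5, 37.8 and 22.9 and 9.90, 22.1 and 27.7. The endothelin receptor Ednrb was at 13.5, 26.8 and 25.0 CPM in cKO and at 18.8, 23.8 and 31.4 in controls. Ttyh1, a chloride channel family protein of glial membranes, was at 54.6, 81.2 and 81.0 CPM in cKO and at 55.1, 61.3 and 86.2 in controls. For Pdpn, Prom1, Ednrb and Ttyh1 the library cKO 1 was the lowest and cKO 2 the highest of the cKO libraries. The log2 fold changes of Pdpn, Prom1, Ednrb and Ttyh1 lay between -0.20 and 0.18. Ttyh1 and Aldh1l1 share exon bases with other genes, and their counts were 1.13 and 1.12 times as large when both strands were summed.

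**Figure D3:**
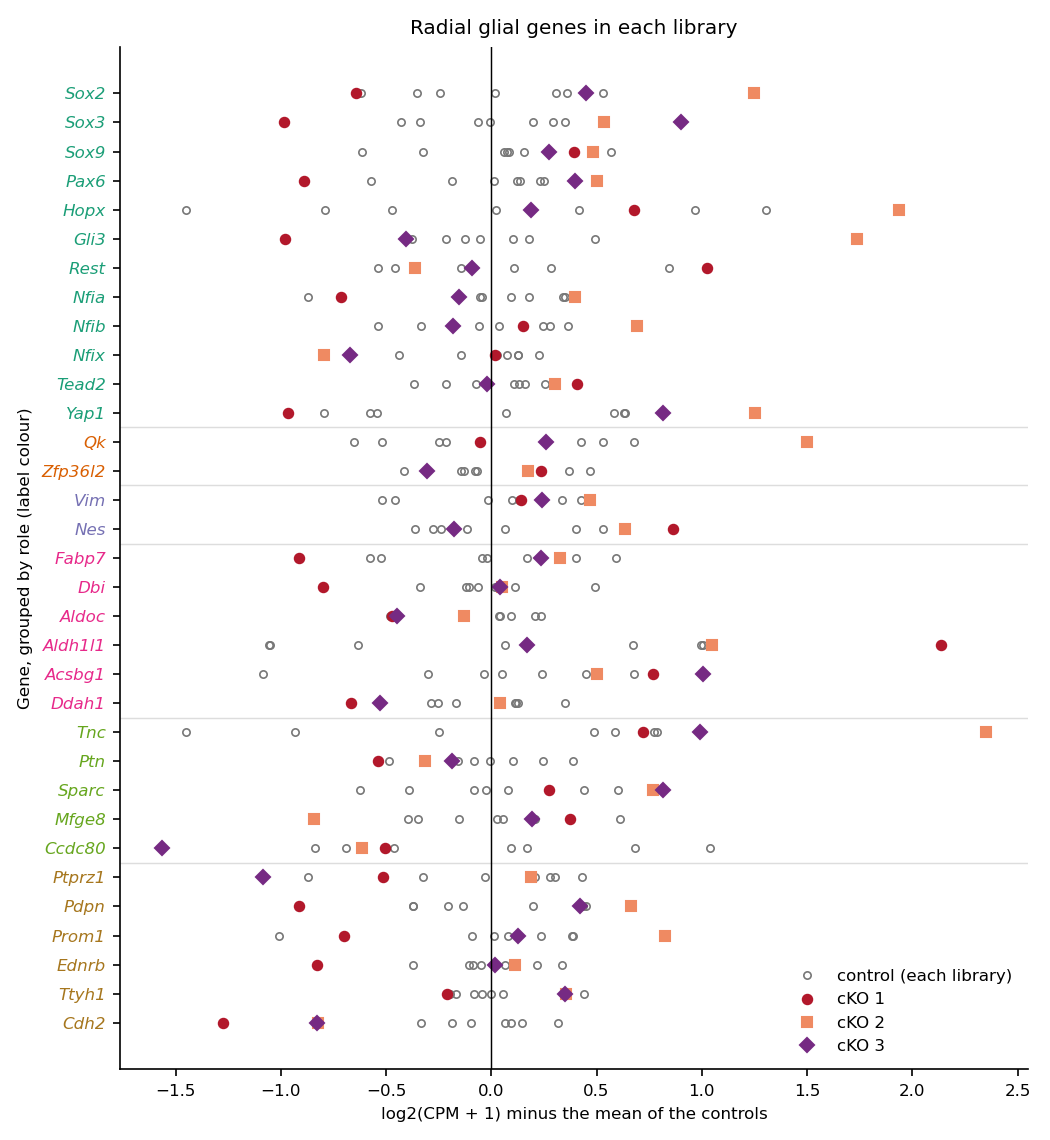
log2(CPM + 1) of each of the 33 radial glial genes in each library, minus the mean of the 7 controls, with cKO embryos as filled symbols and controls as open circles. Of the 31 tested genes, cKO 1 (circles) is the lowest library in 13 and cKO 2 (squares) the highest in 11, and all 3 cKO symbols lie left of every control for Cdh2.

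By the median of the radial glial genes, cKO 1 lay below all controls, cKO 2 above them and cKO 3 within their range. Over the 31 tested genes, the library cKO 1 had a median of -0.51, cKO 2 of 0.47 and cKO 3 of 0.13 in log2(CPM + 1) relative to the control mean, while the 7 controls ran from -0.17 to 0.28. The medians of all genes lay between 0.006 and 0.029 in every library. In 13 of the 31 genes (41.9%) cKO 1 was the lowest of the 10 libraries, beside 18.9% of all genes, and in 11 (35.5%) cKO 2 was the highest, beside 15.0% of all genes. The library cKO 1 was below cKO 2 in 23 of the 31 genes, beside 52.3% of all genes. The SD among cKO libraries exceeded that among controls for 22 of the 31 genes, beside 62.6% of all genes. These are descriptions of 1 embryo each and were not tested. The 33 genes together came to 5529 to 7848 CPM in cKO and 6150 to 7811 CPM in controls.

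The median of the log2 fold changes depended on which cKO embryo was included. Leaving out cKO 2 gave a median of -0.08, with 14 positive and 17 negative values, whereas leaving out cKO 1 gave 0.29, with 22 positive and 9 negative values, and leaving out cKO 3 gave 0.09. Leaving aside the split by reads outside genes, in every alternative fit in which they were tested 18 of the 31 genes kept the sign of their fold change, 11 positive and 7 negative. There were 20 such fits, and 19 for Aldh1l1 and Sox3. Among the libraries with a low share of reads outside genes, which hold 1 cKO embryo, the median was 0.01, and among those with a high share it was 0.12.

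Other genes known from radial glia, which were not in the list, gave 2 calls, both higher in cKO. Of 30 such genes 28 were tested. By edgeR at an adjusted p under 0.05, 2 were higher and 0 lower in cKO, beside 2.27% and 0.883% of all genes. At an unadjusted p under 0.05 there were 9 positive and 2 negative values, beside 16.4% of all genes in either direction. DESeq2 called 1 lower, and the median log2 fold change was 0.26. Gas1, a membrane protein of Hedgehog reception, was at 35.6 to 55.9 CPM in cKO and at 15.7 to 25.6 in controls, a log2 fold change of 1.25 (SE 0.23, adjusted p = 0.00404). Slc1a2, the glutamate transporter GLT-1 of radial glia and astrocytes, was at 62.1 to 90.6 CPM in cKO and at 8.71 to 50.3 in controls, a log2 fold change of 1.38 (SE 0.30, adjusted p = 0.0157). The groups did not overlap for either gene, as for 3.32% of all genes in this direction, and the adjusted p of Slc1a2 was 0.0619 without cKO 2. The related transporter Slc1a3 had group means of 142 ± 50.9 (SD, n = 3) and 132 ± 29.7 (n = 7), with a log2 fold change of 0.10 (SE 0.23).

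Paralogs of the members were counted in the same way. By edgeR 2 of the 17 tested were higher and 0 lower in cKO, beside 2.27% and 0.883% of all genes. At an unadjusted p under 0.05 there were 5 positive and 2 negative values, beside 16.4% of all genes in either direction. Wwtr1, the paralog of Yap1, was at 32.7, 66.6 and 36.1 CPM in cKO and at 13.9 to 32.0 in controls, with a log2 fold change of 1.20 (SE 0.28, adjusted p = 0.0214). Without cKO 2 it was not called, with a value of 0.80 and an adjusted p of 0.140. Mdk, midkine, the paralog of Ptn, was at 293, 293 and 319 CPM in cKO and at 173 to 251 in controls, with a log2 fold change of 0.54 (SE 0.14, adjusted p = 0.0376). This call was lost when any 1 cKO library was left out, and when control 1, 2, 3, 5 or 6 was left out, with an adjusted p of up to 0.181 over the alternatives. The values of Ptn and Mdk had opposite signs, and the difference between them was not tested.

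The lists of the other cells of this lineage had the following values in the same libraries. Projection neuron genes were called lower in 4 of 15, among them Neurod6, Neurod2 and Cux2, beside 0.883% of all genes. At an unadjusted p under 0.05 there were 0 positive and 9 negative values, beside 16.4% of all genes in either direction. The list had a median of -0.59 and a sum of 8424 to 10757 CPM in cKO and 11235 to 14619 in controls. Neurod6, a transcription factor of postmitotic glutamatergic neurons, was at 953 to 1408 CPM in cKO and at 2028 to 2610 in controls, a log2 fold change of -0.98 (SE 0.14, adjusted p = 4.71e-04). The call of Cux2 was lost without cKO 2 or without cKO 3, and that of Neurod2 under a fit with the replicate number as a block (adjusted p = 0.0978). Intermediate progenitor genes gave 0 calls of 12 with edgeR, 2 positive and 3 negative values at an unadjusted p under 0.05 and 1 lower with DESeq2, with a median of -0.06. The smallest p values of that list were those of Sstr2, at -0.55 (SE 0.16, adjusted p = 0.0824), and Neurog2, at -0.68 (SE 0.24, adjusted p = 0.155).

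Dividing cell genes were called higher in 4 of 13 (Cdk1, Ccnb1, Birc5 and Mcm5), beside 2.27% of all genes, with a median log2 fold change of 0.84. At an unadjusted p under 0.05, where 16.4% of all genes lay, they gave 10 positive and 0 negative values. By library their median deviation from the control mean was -0.09 in cKO 1, 1.27 in cKO 2 and 0.73 in cKO 3, and -0.30 to 0.58 in the controls. This was the same order of the embryos as for the radial glial genes. Without cKO 1, 8 of the 13 were called, and none when cKO 2, cKO 3 or control 2, 3, 4 or 7 was left out. With limma-voom 1 was called (Mcm5), and under the replicate block 2 (Ccnb1 and Birc5). The part of the dividing cells in the values of the radial glial genes was not tested.

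**Figure D4:**
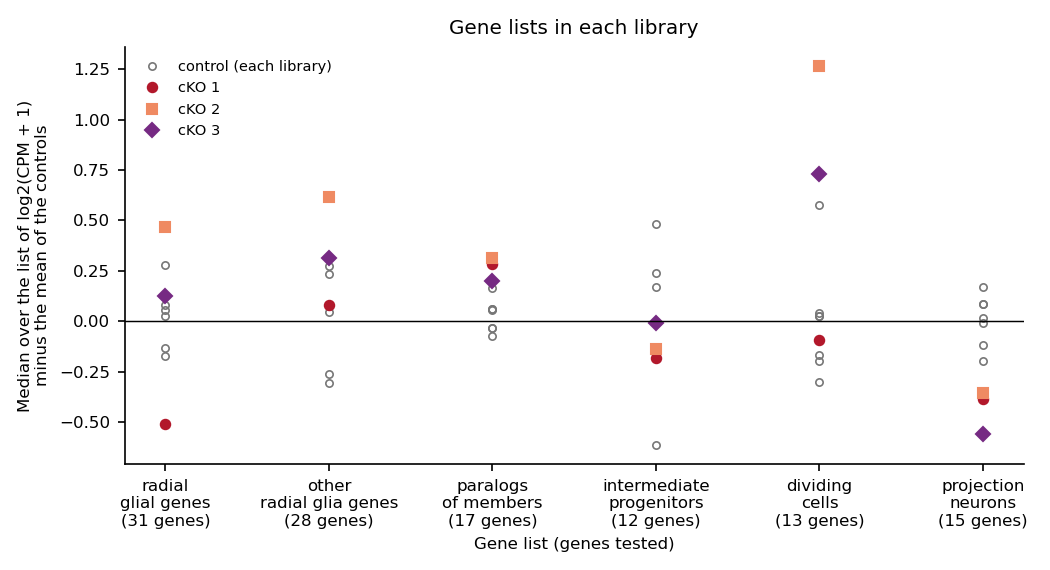
Median over each gene list of log2(CPM + 1) minus the mean of the controls, for each cKO library (filled symbols) and each control (open circles). Radial glial genes lie at -0.51, 0.47 and 0.13 in cKO 1, 2 and 3 and dividing cell genes at -0.09, 1.27 and 0.73, while projection neuron genes are below every control in all 3 cKO libraries.

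Several lists marked other cells that a cortical sort could hold. Endothelial and pericyte genes summed to 4.38 to 24.0 CPM in cKO and 2.54 to 11.6 in controls, microglia genes to 2.76 to 39.9 and 0 to 4.68, and meningeal genes to 23.9 to 44.1 and 9.90 to 30.0, of which most was Dcn. The single meningeal gene tested, Dcn, had a log2 fold change of 0.94 (SE 0.32, adjusted p = 0.137, unadjusted p under 0.05), with all 3 cKO libraries above the control median. None of the 9 endothelial and 7 microglial genes was abundant enough to test. Astrocyte and oligodendrocyte lineage genes summed to 19.7 to 39.8 CPM in cKO and 2.88 to 91.1 in controls, with 2 of 10 tested and neither called, and at unadjusted p under 0.05 there were 0. Interneuron genes gave 1 call higher (Dlx2, log2 fold change 1.63) and 1 lower (Npy, -3.64) of 8, with 4 positive and 1 negative values at an unadjusted p under 0.05 and a median log2 fold change of 1.03, and neither was called without cKO 1. The call of Dlx2 was also lost without cKO 3 or any of controls 3 to 7 and that of Npy without cKO 2, with limma-voom and with the robust edgeR fit (adjusted p up to 0.123), with Npy at 0.788 to 17.4 CPM in cKO and at 31.8 to 234 in controls. Choroid plexus and hem genes summed to 55.2 to 151 CPM in cKO and 41.0 to 127 in controls, with 0 of 2 tested genes called and 1, Ttr, at an unadjusted p under 0.05. Ttr was at 32.4, 5.52 and 54.7 CPM in cKO and at 0 to 20.0 in controls, with a log2 fold change of 2.52 (SE 0.73, adjusted p = 0.0753).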

How the data were processed

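RNA was measured in 10 libraries of 400 sorted cells, each from 1 embryo (3 cKO, 7 control). The deposited files hold the authors' raw read counts per gene as STAR writes them: unstranded, and for each strand setting. The submitters' processing notes name STAR 2.5.0c, bedtools 2.26.0 and GRCm38, and the study's methods name GENCODE M16. Smart-Seq2 does not mark strand (50.3% to 50.5% sense), so the unstranded counts were used, in which reads shared by overlapping genes are left out (4.45% to 5.40%). No sample was dropped, and rows of unassigned reads stayed out of library sizes.

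Symbols and exon lengths came from GENCODE M21 (GRCm38), with 50604 IDs matched with their version, 2670 without it and 105 unmatched. The filter asked for 10 reads per library on average and kept 11551 genes, which were scaled by TMM and tested with edgeR 4.0.16 (quasi-likelihood, R 4.3.3), with Benjamini-Hochberg adjustment over all genes tested and a threshold of 0.05. The embryos are separate animals. SE is the log2 fold change divided by the square root of F. The scripts were tested on simulated counts. The members and lists were chosen with earlier results of these data known, so counts over a list are descriptions. All 33 members are named, from each other list the genes called (1 is not reported here) or the 2 with the smallest p, and Slc1a3, Dcn and Ttr were added after their values were seen. Alternatives used DESeq2 1.42.0, limma-voom (limma 3.58.1), other scaling, filters, strand columns, a covariate for reads outside genes, a replicate block and leaving out each library. The precision is set by 3 against 7 embryos and by read depth.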

Additional observations from a re-analysis of the deposited data

Results flagged for a closer look

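Among the 7 controls, Nfia was low in control 1, at 352 CPM, with the next control at 621 and the highest at 823, a gap of 0.571 of the range. Ttyh1 was high in control 5, at 86.2 CPM, with the next at 65.8 and the lowest at 55.1, a gap of 0.656 of the range. Both gaps exceeded Dixon's critical value of 0.568 for 7 samples. Of 31 genes looked at this way, 2 had such a gap, and chance gives about 1 in 20 groups. Control 5 was the shallowest library, with 1738220 reads on genes. The cKO group of 3 was too small for this check.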

How the results depend on the processing

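Cdh2 was called lower in all 20 alternatives, at log2 fold changes of -1.08 to -0.85 and an adjusted p of at most 0.0222. The count of all genes changed between genotypes was 961 without a filter on low counts and 206 with 10 reads required in every library, beside 364, with 26537 and 9554 in place of 11551 genes tested. Without a filter 1 radial glial gene was called higher (Tnc) and 2 lower (Cdh2 and Nfix). In that edgeR fit the unadjusted p of Hopx (0.0569) and Zfp36l2 (0.968) were those of a normal distribution, with no allowance for the few embryos. Its calls are therefore less strict than those of the filtered fit, and the adjusted p of Tnc was 3.48e-07 in it. Leaving out each library gave 0 to 1 radial glial genes higher and 1 to 2 lower, with Tnc and Nfix called without cKO 1. The median log2 fold change of the radial glial genes ran from -0.0820 without cKO 2 to 0.29 without cKO 1, and was 0.05 with limma-voom. The values within the sets of low and high shares of reads outside genes were chosen after seeing the data.

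The replicate block, with the replicate number as a term, called 213 genes, 0 radial glial genes higher and 1 lower, with a median of 0.23. The numbers 4 to 7 occur in controls only, so these controls add nothing to the genotype difference under the block. It then rests on cKO 1 to 3 and controls 1 to 3, and a lost call may reflect the fewer libraries. Same-numbered cKO and control libraries correlated at 0.041, -0.103 and -0.211 in their deviations from the group means. Those with different numbers ran from -0.27 to 0.25. This gave no sign that the numbers pair embryos, but with 3 cKO libraries the check cannot exclude it. Of the called genes named from other lists, Gas1 (adjusted p = 0.0971), Wwtr1, Mdk, Cdk1, Mcm5, Neurod2 and Dlx2 were not called under the replicate block. With 3 cKO embryos, the width of the intervals limits what small changes in low genes such as Sox3, Yap1 and Aldh1l1 can be seen.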
